A study of Rattus norvegicus with 24 samples.

Results

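The 6 genes followed here belong to the cytochrome P450 superfamily, the haem enzymes that oxidize drugs, steroids and other lipophilic compounds: Cyp2b1, Cyp2b2, Cyp3a23-3a1, Cyp3a9, Cyp3a18 and Cyp3a62. They are the Cyp2b and Cyp3a genes that were selected by symbol from the Entrez gene identifiers of the count tables, where they stand as 24300, 361523, 25642, 171352, 252931 and 170509 in the same order, 6 of 15319 genes in all. The rule uses symbols and no measured values, but the set was proposed with earlier results of these data known.

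The study asked what inhaled PCB 52 does to gene expression in the liver of adolescent rats. PCB 52 is a tetrachlorinated biphenyl in which some of the chlorines are at ortho positions. Sprague-Dawley rats, an outbred stock, arrived at 28 days of age, and exposure began at 42 days in females and at 39 days in males. The design had 4 groups of 6 animals and 24 bulk RNA-seq libraries of liver, 1 per animal: sham females (animals 2 to 12, even numbers), PCB 52 females (14 to 24), sham males (1 to 11, odd numbers) and PCB 52 males (13 to 23). Exposed animals breathed nose-only, for 4 hours a day over 28 days, air that had passed PCB 52-coated glass beads at 12 L/min. What the sham animals breathed, and the dose that reached the animals, are not given in the sources used here. Animal numbers rise from sham to exposed, so order and exposure go together. Sex, count table and age at the start of exposure also go together and cannot be told apart.

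Transcription of these genes in hepatocytes is known to be driven by 2 nuclear receptors. CAR, the product of Nr1i3, waits in the cytoplasm, moves to the nucleus when an inducer such as phenobarbital is present, pairs with RXR and switches on Cyp2b genes above all. PXR, the product of Nr1i2, binds drugs, steroids and bile acids as ligands and is the main inducer of Cyp3a genes. Some PCBs with ortho chlorines belong to the phenobarbital-like inducers of rat liver. In the rat several members of both subfamilies also differ between the sexes under the sex-specific pattern of growth hormone release.

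Cyp2b1 and Cyp2b2 are neighbours on chromosome 1 and nearly identical in sequence, which limits how well reads can be split between them. Their promoters are alike as well. The lines below are RefSeq sequence of build GRCr8, plus strand, 5′ to 3′, ending at the base before the first annotated transcript start: chr1:90645869-90646097 for Cyp2b1 and chr1:90722031-90722242 for Cyp2b2. Capitals mark the bases that differ between them.
Cyp2b1: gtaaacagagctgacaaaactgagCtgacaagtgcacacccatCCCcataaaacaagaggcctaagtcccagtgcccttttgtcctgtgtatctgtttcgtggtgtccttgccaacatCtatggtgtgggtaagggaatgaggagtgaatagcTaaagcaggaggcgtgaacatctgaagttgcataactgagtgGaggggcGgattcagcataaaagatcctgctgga
Cyp2b2: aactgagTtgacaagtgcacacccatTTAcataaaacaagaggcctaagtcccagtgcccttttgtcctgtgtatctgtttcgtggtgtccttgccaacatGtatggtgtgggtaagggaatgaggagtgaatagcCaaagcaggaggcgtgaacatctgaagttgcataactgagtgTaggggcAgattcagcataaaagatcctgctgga
Of 212 aligned bases 204 were identical (96.2%), with 8 mismatches and no gap inside the alignment. These windows lie before the transcripts, so their identity does not measure how reads split, and identity of the transcripts was not computed. Because the split is uncertain, the values of each gene are given together with those of the summed pair.

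The promoter of Cyp3a23-3a1 is shown because it alone among the 6 members held a complete receptor repeat of the kinds searched. The 250 bases before its start were chr12:14398804-14399053, minus strand, in RefSeq build GRCr8, and capitals mark the repeat.
Cyp3a23-3a1: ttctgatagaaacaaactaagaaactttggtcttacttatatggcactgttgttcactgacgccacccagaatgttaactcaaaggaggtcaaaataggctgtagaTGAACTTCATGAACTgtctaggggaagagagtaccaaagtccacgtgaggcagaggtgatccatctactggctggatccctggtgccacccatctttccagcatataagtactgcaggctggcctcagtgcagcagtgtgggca
The repeat is a DR3, 2 half-sites of the form AGGTCA or AGTTCA in the same direction with 3 bases between, a spacing to which PXR with RXR is known to bind. It lay 144 to 130 bases before the start. Start here is that of the promoter window, which was not checked against the first annotated transcript start. Both strands of the 250 bases before the start were searched for exact half-sites in 33469 RefSeq windows. A DR3 occurred in 13 of them (0.0388%), a DR4 (4 bases between) in 5 (0.0149%) and an ER6 (half-sites facing apart with 6 bases between) in 1 (0.00299%). No DR4 or ER6 was found in the window of any member. For the Cyp2b pair the uncut 250 bases were searched, chr1:90645869-90646118 and chr1:90722031-90722280. These run past the first annotated transcript starts at which the lines above end. A DR3 was also found for Cyp3a2, the chromosome 12 neighbour of Cyp3a23-3a1, whose window matched it at 207 of 237 aligned bases (87.3%), with 24 mismatches and 6 gap bases. Single half-sites are common letters: AGGTCA was in 14.1% and AGTTCA in 12.2% of all windows, and AGTTCA occurred in the windows of Cyp3a9, Cyp3a18 and Cyp3a62. A match describes the letters and is no sign of binding, and distal enhancers lie outside these windows.

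Libraries held 6994832 to 9185511 counts, so 1 count was worth 0.109 to 0.143 counts per 1000000 counts of its library (CPM). Hepatocyte markers (Alb, Apoa1, Ttr, Serpina1, Tf and Cps1) were high in every library, summing to 143990 to 185940 CPM. Animals 13 to 16, the first 2 exposed animals of each sex, scored highest of their sex on a leading axis of variation among animals. Each sex was scored on the axis computed in the other sex, as a weighted sum of log2 CPM differences from the sham mean. Scores of females and males thus come from 2 separate axes. The sign of each axis, which is arbitrary, was set so that scores rise with the gene Thoc2. These 4 scored 10.5 to 14.9, against −3.76 to 9.11 in the other 20. PCB 52 male 23 (9.11) and sham female 12 (8.47) lay close below, so the 4 form no separate block. The exposure tests of the members, CAR, PXR and Por are also given without animals 13 to 16.

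No member passed the test for a difference between PCB 52 and sham animals in either sex. By edgeR's quasi-likelihood test with Benjamini-Hochberg adjustment, 0 of the 5 members tested in females and 0 of the 6 tested in males passed an adjusted p of 0.05. Over all genes 0% passed as well, 0 of 10251 in females and 0 of 10180 in males. At an unadjusted p under 0.05 stood 1 member in each sex, Cyp3a18 in females and Cyp3a62 in males, where 9.96% of all genes in females (1021) and 5.75% in males (585) did so. DESeq2 called 28 genes in females and 1 in males and limma-voom 1 and 0, none of them one of the members tested. No member separated exposed from sham libraries completely in either sex, as 0.332% of genes did in females and 0.236% in males. The median log2 fold change of the members was −0.19 in females and −0.21 in males, beside 0.00 over all genes in each sex. PCB 52 females and males share no library, and each exposure contrast has its own sham group.

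**Figure D1:**
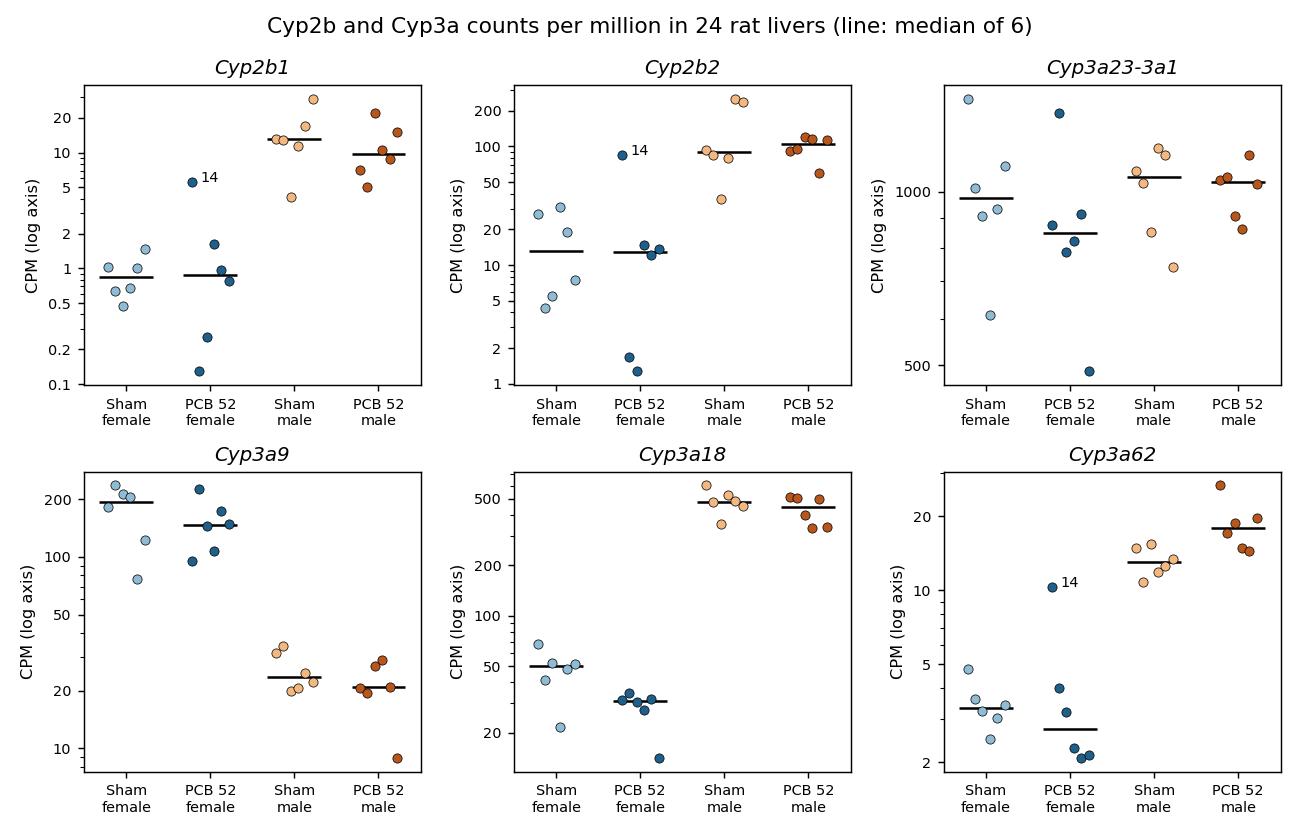
CPM of the 6 genes in each of 24 livers on log axes, 1 point per animal, with a line at the median of the 6 animals of a group. Cyp2b1, Cyp2b2, Cyp3a18 and Cyp3a62 sit higher in males, Cyp3a9 sits higher in females, and animal 14 (labelled) is the highest female for Cyp2b1, Cyp2b2 and Cyp3a62.

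Cyp2b1 and Cyp2b2 are the classic phenobarbital-inducible P450s of rat liver and the readout by which CAR activation is usually recognized. In sham females Cyp2b2 ranged from 4.37 to 30.8 CPM with a median of 13.2, and in PCB 52 females from 1.28 to 84.7 CPM with a median of 12.9. The exposed females thus held both the highest and the lowest values of their sex. Animal 14 stood at 84.7 CPM, the other 5 at 1.28 to 14.9 CPM. Exposed females averaged 21.4 ± 31.6 CPM and sham females 15.7 ± 11.5 CPM (SD, n = 6). On the log2 scale Cyp2b2 in exposed females differed from sham by 0.45 ± 0.93 (SE), with a 95% interval of −1.61 to 2.50 and an adjusted p of 0.894 by edgeR. Without animal 14 it was −0.86 ± 0.76, and without animals 13 to 16 it was −0.59, so its direction rested on 1 liver.

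Cyp2b1 was close to the limit of counting in females. Sham females had 4 to 13 counts, 0.477 to 1.48 CPM with a median of 0.841, and PCB 52 females 1 to 46 counts, 0.129 to 5.58 CPM with a median of 0.877. Animal 14 again gave the highest value, and the other 5 exposed females reached at most 1.63 CPM, so the groups overlapped. The gene did not pass the filter on low counts in the female table. With no filter its log2 fold change was 0.83 ± 0.67 (adjusted p = 0.713 by edgeR). Summed, the pair had a log2 fold change of 0.47 ± 0.91 in females, and −0.82 without animal 14.

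In males both genes were well above the counting limit. Cyp2b2 ranged from 36.3 to 253 CPM in sham males (median 89.3) and from 60.0 to 120 CPM in PCB 52 males (median 104). The exposed values lay inside the sham range, which was stretched at its upper end by animals 9 and 11 at 253 and 238 CPM. All 6 exposed males were below the sham mean of 131 ± 91.0 CPM, yet the exposed median was above the sham median. For exposure the log2 fold change was −0.38 ± 0.44 (interval −1.34 to 0.59, adjusted p = 0.899 by edgeR), limma-voom with quality weights gave 0.05, and edgeR without animals 13 to 16 gave −0.32. The coefficient of variation of Cyp2b2 was 69.4% in sham and 22.5% in exposed males, a difference that was not tested.

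Cyp2b1 had a similar range in both groups of males. It ran from 4.17 to 29.3 CPM in sham (median 13.02) and from 5.08 to 21.9 CPM in exposed males (median 9.75), and all exposed values fell within the sham range. Its log2 fold change was −0.32 ± 0.45 (interval −1.30 to 0.66, adjusted p = 0.921 by edgeR). Animals 13 and 15 had the 2 lowest exposed values, 7.14 and 5.08 CPM, and without animals 13 to 16 the log2 fold change was −0.01. The summed pair stood at −0.37 ± 0.43 in males, and at −0.29 without those 4 animals. The upper end of these intervals allows a rise of 0.58 on the log2 scale for the summed pair in males and of 2.49 in females, so the female data leave a wide range of Cyp2b change undetectable with these 12 animals.

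Cyp3a23-3a1 encodes the rat CYP3A1 enzyme, the standard readout of PXR activation. Sham females spanned 611 to 1453 CPM (median 974.5) and PCB 52 females 487 to 1373 CPM (median 848). Sham males spanned 741 to 1192 CPM (median 1061) and PCB 52 males 861 to 1161 CPM (median 1042). All 4 groups overlapped one another. The log2 fold change was −0.19 ± 0.22 in females (interval −0.67 to 0.28) and 0.02 ± 0.11 in males (interval −0.22 to 0.26), with adjusted p of 0.789 and 0.983 by edgeR. The male interval of this gene was the narrowest among the 6 members, and its sign in males changed without animal 5, 11 or 21, over a range of −0.062 (without animal 11) to 0.068 (without animal 7). Without animals 13 to 16 the female value was −0.43 ± 0.21 (adjusted p = 0.843 by edgeR), over 2 times the value with them, and the male value was 0.0047 ± 0.14.

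Cyp3a9 is known as a female-predominant, oestrogen-responsive Cyp3a form. It ranged from 76.3 to 236 CPM in sham females (median 194) and from 95.2 to 226 CPM in PCB 52 females (median 147). The exposed females lay wholly within the sham range. Exposed minus sham was −0.20 ± 0.29 on the log2 scale (adjusted p = 0.838 by edgeR). In males it ranged from 19.9 to 34.5 CPM in sham (median 23.5) and from 8.89 to 29.1 CPM in exposed animals (median 20.9), with a log2 fold change of −0.27 ± 0.24 (adjusted p = 0.871 by edgeR). The values without animals 13 to 16 were −0.26 in females and −0.23 in males. The lowest exposed male, animal 23, was well apart from the other 5 at 19.4 to 29.1 CPM.

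Cyp3a18, a male-predominant steroid hydroxylase, had the smallest p of any member in females. Sham females ranged from 21.8 to 67.6 CPM with a median of 49.9. PCB 52 females ranged from 14.1 to 34.6 CPM with a median of 31.0. All sham females but 1 lay above every exposed female, and that one, animal 8 at 21.8 CPM, lay within the exposed range, and 6 of 6 exposed females were below the sham mean. The log2 fold change was −0.74 ± 0.24 (interval −1.25 to −0.22, unadjusted p = 0.00874), and it did not pass over all genes (adjusted p = 0.395 by edgeR, 0.106 to 0.822 across the alternatives). Leaving out 1 library at a time gave −0.87 to −0.58, and without animals 13 to 16 the value was −0.87. In males Cyp3a18 ran from 353 to 602 CPM in sham (median 480) and from 333.7 to 513 CPM in exposed animals (median 449), a log2 fold change of −0.15 ± 0.14 (adjusted p = 0.874 by edgeR) and of −0.26 ± 0.16 without animals 13 to 16.

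Cyp3a62, a Cyp3a form known from liver and intestine, had the smallest p of any member in males. Sham males ranged from 10.8 to 15.5 CPM with a median of 12.99, and PCB 52 males from 14.5 to 26.8 CPM with a median of 17.97. All 6 exposed males were above the sham mean of 13.2 ± 1.77 CPM, the 2 groups overlapped between 14.5 and 15.5 CPM, and the highest value was that of animal 13. Exposure gave a log2 fold change of 0.51 ± 0.14 (interval 0.21 to 0.81, unadjusted p = 0.00192), the 16th smallest p of 10180 genes. It did not pass over all genes (adjusted p = 0.829 by edgeR, 0.553 to 0.999 across the alternatives). Without animals 13 to 16 the value was 0.39. The intestinal marker list, measured because gut lies next to liver, summed to 12.0 to 103 CPM in sham and 6.62 to 113 CPM in exposed males. In females it summed to 0.849 to 2.71 CPM. Nearly all of it was Cdh17, and a sum carried by 1 gene cannot tell adjacent gut from expression of that gene in liver. The part of this list in the Cyp3a62 level was not tested.

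In females Cyp3a62 was low, at 22 to 42 counts in sham and 15 to 85 counts in PCB 52 animals. Sham values were 2.48 to 4.78 CPM (median 3.32) and exposed values 2.07 to 10.3 CPM (median 2.74). Animal 14 gave the 10.3 CPM, and the other 5 exposed females stood at 2.07 to 3.99 CPM. Over all 12 females the log2 fold change was 0.24 ± 0.37 (adjusted p = 0.851 by edgeR), and −0.33 ± 0.24 without animal 14 or −0.50 ± 0.24 without animals 13 to 16. The animal that was highest for Cyp2b1 and Cyp2b2 was thus highest for this gene too, while its Cyp3a23-3a1 (876 CPM), Cyp3a9 (95.2 CPM) and Cyp3a18 (31.3 CPM) lay within the range of the other females.

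Whether females and males responded differently was tested in 1 fit of all 24 libraries. By edgeR 0 of 6 members and 0% of all genes passed (0 of 10535, with 239 at an unadjusted p under 0.05, or 2.27%). For Cyp3a18 the difference was −0.59 ± 0.29 on the log2 scale (unadjusted p = 0.0538). The differences of Cyp2b1 and Cyp2b2, 1.15 ± 0.88 and 0.83 ± 0.99, became 0.13 and −0.48 without animal 14. Cyp3a23-3a1 (−0.21 ± 0.26), Cyp3a9 (0.07 ± 0.39) and Cyp3a62 (−0.28 ± 0.40) had intervals that include 0. Without animal 14 the difference for Cyp3a62 was −0.84 ± 0.26, with an adjusted p of 1.00 by edgeR. Without animals 13 to 16 the differences were 0.077 for Cyp2b1, −0.27 for Cyp2b2, −0.43 for Cyp3a23-3a1, −0.026 for Cyp3a9, −0.61 for Cyp3a18 and −0.89 ± 0.25 for Cyp3a62, and again 0 genes passed.

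**Figure D2:**
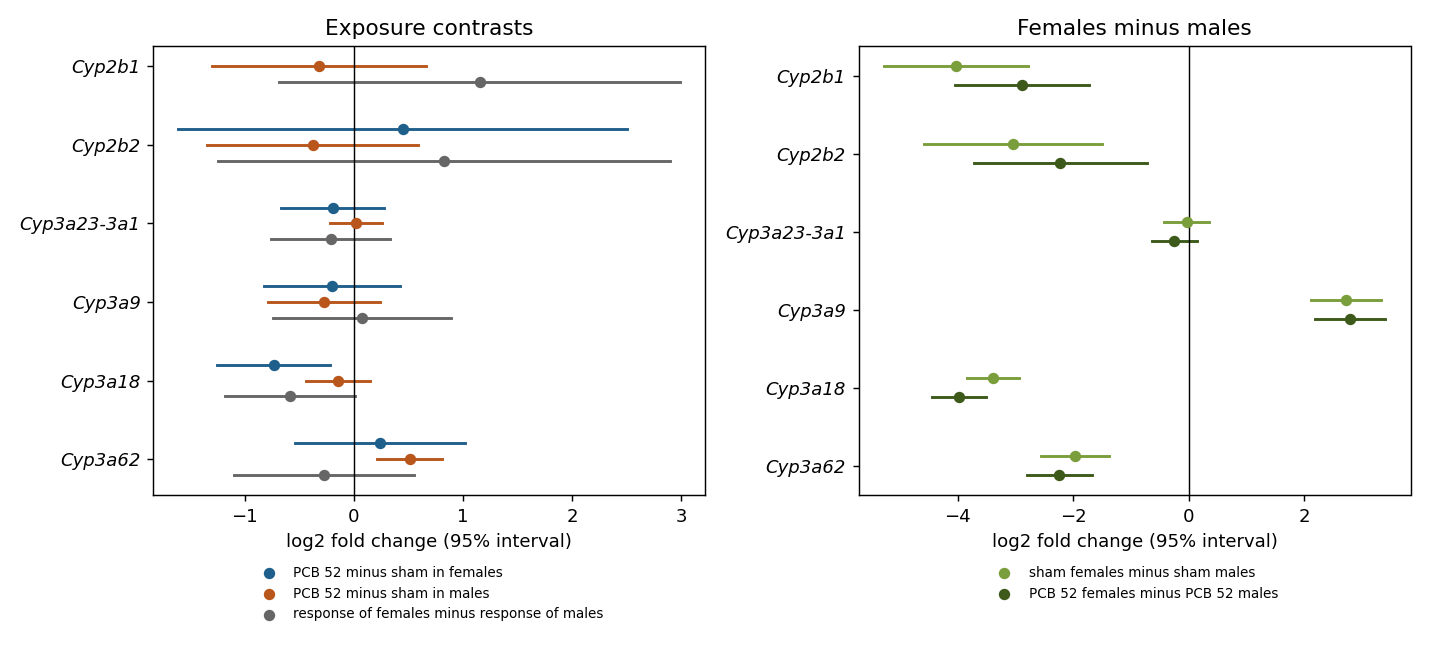
Log2 fold changes with 95% intervals from edgeR for the 6 genes, with exposure contrasts and their difference between the sexes on the left and females minus males on the right. Exposure intervals of Cyp2b2 in females run from −1.61 to 2.50, and in sham animals 5 of the 6 intervals on the right lie clear of 0. Cyp2b1 in females was below the count filter and has no exposure value in that sex.

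Between the sexes 5 of the 6 genes differed in level. In sham animals Cyp3a9 was higher in females and Cyp2b1, Cyp2b2, Cyp3a18 and Cyp3a62 were higher in males by edgeR over all genes, where 20.3% of genes passed (10.7% higher and 9.62% lower in females). The same 5 members showed no overlap between the 6 sham females and the 6 sham males, beside 11.5% of all genes. The median log2 fold change of females over males was −2.51 for the members and 0.00 for all genes tested. Cyp2b1 passed the count filter through the males alone. Of the other 5 members, which passed it within each sex, 1 was higher and 3 were lower in females (median −1.97), beside 10.5% and 9.20% of the 10035 genes that did so. In bulk liver fewer cells of a type and less RNA per cell cannot be told apart.

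Cyp3a18 had the smallest p among them. Its sham females reached at most 67.6 CPM and its sham males at least 353 CPM. Means were 47.1 ± 15.1 and 482 ± 82.7 CPM (SD, n = 6), 10.5-fold higher in males, a log2 fold change of females over males of −3.39 ± 0.22 (adjusted p = 2.04e-11 by edgeR). Exposed animals were as far apart, with 28.3 ± 7.33 CPM in females and 432 ± 84.6 CPM in males, and a log2 fold change of −3.97 ± 0.23 (adjusted p = 2.25e-12 by edgeR).

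Cyp3a9 ran the other way. Sham females stood at 76.3 CPM or more and sham males at 34.5 CPM or less. Means of 173 ± 61.1 and 25.6 ± 6.06 CPM (SD, n = 6) gave a log2 fold change of 2.73 ± 0.29, 6.62-fold higher in females (adjusted p = 2.28e-07 by edgeR). In exposed animals the value was 2.80 ± 0.29 (150 ± 47.3 against 21 ± 7.06 CPM, adjusted p = 1.78e-07 by edgeR).

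Cyp2b1 averaged 14.6 ± 8.32 CPM in sham males and 0.884 ± 0.361 CPM in sham females (SD, n = 6). The log2 fold change of females over males was −4.04 ± 0.60 (adjusted p = 2.63e-05 by edgeR), 16.4-fold higher in males. Cyp2b1 passed the count filter through the males alone, and sham females held only 4 to 13 counts, so the size of this fold is imprecise. For Cyp2b2 the means were 131 ± 91.0 and 15.7 ± 11.5 CPM and the value was −3.05 ± 0.74 (adjusted p = 0.00461 by edgeR). The summed pair had −3.12 ± 0.73 (adjusted p = 0.00348 by edgeR). That sum is mostly Cyp2b2, and how far the Cyp2b1 value depends on reads that fit both paralogs was not tested.

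Exposed females and males also differed in both Cyp2b genes. Cyp2b1 had a log2 fold change of females over males of −2.88 ± 0.56 (adjusted p = 5.09e-04 by edgeR) and Cyp2b2 one of −2.22 ± 0.72 (adjusted p = 0.0311 by edgeR), and for both the groups overlapped through animal 14 alone. Without it the values were −3.91 and −3.53, and for the pair −3.57 in place of −2.28. The exposed Cyp2b2 call was lost when any of animals 16, 17, 18, 19, 20, 22 or 24 was left out, with adjusted p of 0.0515 to 0.0697 by edgeR. That of the summed pair was lost without animal 20, 22 or 24 (0.0519 to 0.0576).

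Cyp3a62 was 3.91-fold higher in sham males than in sham females, 13.2 ± 1.77 against 3.42 ± 0.770 CPM (SD, n = 6). The log2 fold change of females over males was −1.97 ± 0.28 in sham and −2.24 ± 0.28 in exposed animals (adjusted p = 8.41e-06 and 6.75e-07 by edgeR). The lowest male of either group, at 10.8 CPM, was only just above animal 14 at 10.3 CPM.

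Cyp3a23-3a1 was the exception. Its means were 1005 ± 276 CPM in sham females and 1011 ± 178 CPM in sham males (SD, n = 6), with a log2 difference of −0.04 ± 0.19 and an interval of −0.42 to 0.35 (adjusted p = 0.926 by edgeR). In exposed animals it was −0.25 ± 0.19 (interval −0.63 to 0.14, adjusted p = 0.408 by edgeR), and −0.47 ± 0.21 without animals 13 to 16 (adjusted p = 0.16).

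In exposed animals the same 5 members passed in the same directions as in sham animals, beside 19.9% of all genes (10.1% higher and 9.73% lower in females). Here too Cyp2b1 passed the count filter through the males alone. Of the other 5 members, 1 was higher and 3 were lower in females (median −2.22). Among the 10035 genes that passed the filter within each sex, 9.99% were higher and 9.37% lower. Only Cyp3a9, Cyp3a18 and Cyp3a62 showed no overlap in exposed animals, beside 9.84% of all genes. Without animals 13 to 16 the 5 members passed in both sham and exposed animals, with log2 fold changes of −3.96 for Cyp2b1 and −3.32 for Cyp2b2, 2.70 for Cyp3a9, −3.997 for Cyp3a18 and −2.86 for Cyp3a62 in the exposed. The order of group means was sham males, PCB 52 males, PCB 52 females, sham females for both Cyp2b genes. For Cyp3a18 it was sham males, PCB 52 males, sham females, PCB 52 females, for Cyp3a62 PCB 52 males, sham males, PCB 52 females, sham females, and for Cyp3a9 sham females, PCB 52 females, sham males, PCB 52 males. The place of PCB 52 females above sham females rested on animal 14 for Cyp2b1, Cyp2b2 and Cyp3a62. Without it their means were 0.754, 8.72 and 2.73 CPM, below the sham means of 0.884, 15.7 and 3.42 CPM. In each of these orders no neighbours of the same sex passed the test after adjustment over all genes. Before adjustment the intervals of Cyp3a18 in females (−1.25 to −0.22) and Cyp3a62 in males (0.21 to 0.81) lay clear of 0. Neighbours of different sex did not overlap, apart from animal 14 in the Cyp2b genes. Cyp2b1 in females, below the filter, had no exposure test in the main fit of that sex. For Cyp3a23-3a1 the order was PCB 52 males, sham males, sham females, PCB 52 females, and no neighbours in it differed beyond their spread.

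Within a group, the Cyp2b genes varied from animal to animal more than nearly all of the transcriptome. The within-group standard deviation of log2 CPM was 1.35 for Cyp2b2, above that of 99.8% of 10535 genes, and 0.944 for Cyp2b1 (99.3%). Among females Cyp2b2 had 1.74, with a 66.4-fold range from animal 18 (1.28 CPM, 10 counts) to animal 14 (84.7 CPM, 698 counts). Among males it had 0.793 and a 6.97-fold range. Cyp3a9 (0.514), Cyp3a62 (0.480), Cyp3a18 (0.411) and Cyp3a23-3a1 (0.352) stood above 91.7%, 89.9%, 84.0% and 76.7% of genes. In males alone these 4 stood above 90.3%, 61.9%, 64.2% and 49.4%, and in females above 93.3%, 95.9%, 91.9% and 87.2%. Cyp3a62 had 0.245 (56.6%) without animals 13 to 16, while Cyp2b2 and Cyp2b1 were still above 99.7% and 98.0% of genes. The Cyp3a genes ranged 1.61-fold to 4.97-fold between the highest and lowest animal of a sex.

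The members did not vary as one block. Log2 CPM was centred on the mean of each of the 4 groups, and 15 pairs of members were compared across 24 animals, with permutation within groups and Benjamini-Hochberg adjustment over the 15. Of these, 2 pairs passed. Cyp2b1 and Cyp2b2 had Pearson r = 0.798 (permutation p = 1.7e-04, adjusted 0.00128) and Spearman rho = 0.684 (permutation p = 0.001, adjusted 0.0075). Without the 2 animals farthest from the median of Cyp2b1 r was 0.642, and it was 0.840 in the 12 females, 0.766 in the 12 males and 0.700 without animals 13 to 16. The labels do not say how reads that fit both paralogs were assigned, and the part of such reads in this relation was not tested.

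Cyp3a23-3a1 and Cyp3a18 were the other pair, with r = 0.835 (permutation p = 2e-05, adjusted 3e-04) and rho = 0.746 (permutation p = 1.2e-04, adjusted 0.0018). Without the 2 farthest animals r was 0.668, in females 0.891, in males 0.626 and without animals 13 to 16 it was 0.869. Animals low in both were 8 and 24 among the females. The part of reads that fit several Cyp3a genes in this relation, and in the levels of the Cyp3a genes, was not tested. In males alone neither pair passed after adjustment (0.0707 and 0.239). No pair of a Cyp2b with a Cyp3a gene passed over the 24 animals, and the other 13 pairs had r between −0.356 and 0.380. In females alone Cyp2b1 and Cyp3a9 had r = −0.640 (adjusted permutation p = 0.0355) and rho = −0.741, which did not pass (adjusted permutation p = 0.0658), and r was −0.481 without the 2 farthest animals. Cyp2b1 had only 1 to 46 counts in these livers.

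**Figure D3:**
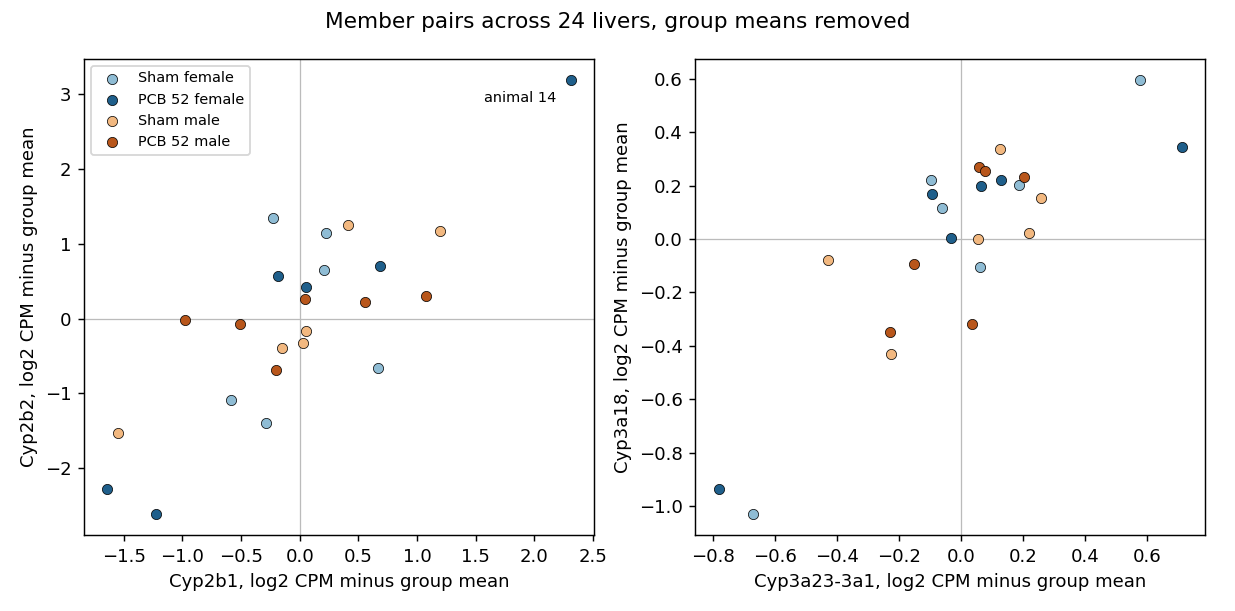
Log2 CPM minus the group mean in 24 livers, Cyp2b2 against Cyp2b1 on the left and Cyp3a18 against Cyp3a23-3a1 on the right, 1 point per animal coloured by group. Pearson r was 0.798 on the left and 0.835 on the right, and animal 14 (labelled) is the highest point for both Cyp2b genes.

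CAR itself was lower in females. Nr1i3 ranged from 18.8 to 36.7 CPM in sham females (median 29.5), from 9.57 to 31.3 CPM in PCB 52 females (median 19.97), from 78.6 to 174 CPM in sham males (median 114) and from 86.2 to 141 CPM in PCB 52 males (median 113). No female reached any male. The log2 fold change of females over males was −2.16 ± 0.25 in sham and −2.57 ± 0.26 in exposed animals (adjusted p = 8.48e-07 and 9.28e-08 by edgeR). For exposure, females had −0.48 ± 0.26 (adjusted p = 0.561 by edgeR) and males −0.08 ± 0.21 (adjusted p = 0.955). With animals 13 to 16 left out these were −0.60 ± 0.26 and 0.094 ± 0.22 (adjusted p = 0.822 and 0.999).

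The relation of Nr1i3 to the Cyp2b genes within groups passed by Pearson's r over all animals and not by Spearman's rho. Across 24 centred animals r was 0.655 for Nr1i3 with Cyp2b1 (permutation p = 0.0037) and 0.637 with Cyp2b2 (permutation p = 0.00723), each 0.0434 after adjustment over 12 relations of 2 receptors with 6 members. Spearman rho was 0.560 and 0.502, each 0.114 after adjustment. Without the 2 animals farthest from the median of Nr1i3 r was 0.493 and 0.395. In females r was 0.774 for each gene (adjusted permutation p = 0.0808 for each) and in males 0.453 and 0.295 (adjusted permutation p = 0.410 and 0.743), so neither sex passed alone. When animals 13 to 16 were left out r was 0.459 and 0.537 (adjusted permutation p = 0.341 for each). The adjusted call thus depended on the measure. It was also lost without those 4 animals, with 20 animals in place of 24. These 12 relations were added after the values had been seen.

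**Figure D4:**
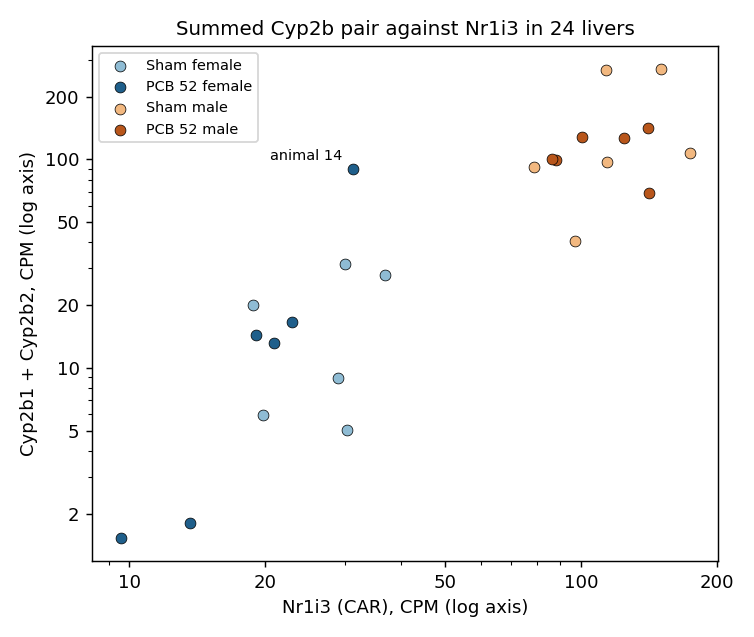
Summed Cyp2b1 and Cyp2b2 CPM against Nr1i3 (CAR) CPM in 24 livers on log axes, 1 point per animal coloured by group. Females occupy the lower left with at most 36.7 CPM of Nr1i3, males the upper right with at least 78.6 CPM, and animal 14 has the highest pair sum of the females.

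PXR had another pattern. Nr1i2 averaged 299 ± 47.0 CPM in sham females, 235 ± 36.2 CPM in PCB 52 females, 228 ± 29.8 CPM in sham males and 238 ± 47.7 CPM in PCB 52 males (SD, n = 6). It was higher in sham females than in sham males (log2 fold change 0.37 ± 0.12, adjusted p = 0.0262 by edgeR), and in exposed animals the difference was −0.06 ± 0.12 (adjusted p = 0.802). The test of the difference in response between the sexes did not pass for Nr1i2 or any other gene (0 of 10535 by edgeR). The exposure contrast in females was −0.34 ± 0.10 (adjusted p = 0.388 by edgeR) and in males 0.08 ± 0.13 (adjusted p = 0.927). In the 20 other animals these were −0.28 ± 0.11 and 0.27 ± 0.09 (adjusted p = 0.822 and 0.999). None of the 6 relations of Nr1i2 with a member passed across animals.

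Of 26 measured receptors and coregulators, from CAR, PXR and RXR to the liver factors and chaperones they work with, 0 passed for exposure in either sex. At an unadjusted p under 0.05 stood 10 in females and 2 in males, beside 9.96% and 5.75% of all genes, and 6 and 1 without animals 13 to 16, beside 6.01% and 3.96%. In females 16 of the 26 were below 0 with a median log2 fold change of −0.11, beside 0.00 over all genes, and in males 13 were below 0 with a median of 0.00. The smallest p in females belonged to Foxa3, a pioneer factor at liver genes (−0.48 ± 0.13), Nr1i2, Gadd45b, a stress-inducible protein known as a coactivator of CAR (−0.71 ± 0.23), and Hnf4a, a master regulator of hepatocyte genes (−0.24 ± 0.08), with adjusted p between 0.341 and 0.396 by edgeR. In males they belonged to Gadd45b (−0.61 ± 0.27), Cebpa (−0.23 ± 0.10), Cebpb (−0.40 ± 0.24) and Foxa3 (−0.21 ± 0.13). Between sham females and males 6 were higher and 3 lower in females, beside 10.7% and 9.62% of all genes. They were led by Nr1i3, Gadd45b (1.53 ± 0.26), the chaperone Hsp90ab1 (0.35 ± 0.09) and Foxa3 (−0.54 ± 0.14). In exposed animals 4 were higher and 3 lower, beside 10.1% and 9.73% of all genes.

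Por encodes the reductase that hands electrons to every microsomal P450. It ranged from 309 to 547 CPM in sham females, 282 to 521 in PCB 52 females, 390 to 541 in sham males and 254 to 567 CPM in PCB 52 males. For exposure the log2 fold change was −0.45 ± 0.15 in females (unadjusted p = 0.00664, adjusted p = 0.392 by edgeR) and −0.11 ± 0.20 in males (adjusted p = 0.935). The 2 lowest males were animals 13 and 15, at 276 and 254 CPM. Leaving out animals 13 to 16 gave −0.35 ± 0.17 in females and 0.15 ± 0.10 in males. Of the 17 measured genes for electron and haem supply, 0 passed for exposure. At an unadjusted p under 0.05 stood 3 in females and 0 in males, beside 9.96% and 5.75% of all genes. The median of the 17 was −0.03 in females and −0.08 in males. After Por the smallest p in females were those of Cyb5r3, a cytochrome b5 reductase (0.27 ± 0.12), and Alas1, the first enzyme of haem synthesis (−0.39 ± 0.17). Between sham females and males 4 of the 17 were higher and 2 lower in females, beside 10.7% and 9.62% of all genes. Cyb5b stood at 0.90 ± 0.10 and Pgrmc1 at −0.49 ± 0.07. Hmox1, which degrades haem, stood at 0.94 ± 0.16 and Fech, which inserts iron into haem, at −0.48 ± 0.10. Por did not pass (−0.01 ± 0.18).

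Other known targets of CAR and PXR did not pass for exposure either. Of 24 tested in each sex, 15 were above 0 in females and 13 in males, with medians of 0.04 and 0.03. Abcb1b, a drug efflux pump, ran from 2.60 to 5.25 CPM in sham and from 0.449 to 2.31 CPM in exposed females, with no overlap. Its log2 fold change was −1.42 ± 0.32 (adjusted p = 0.284 by edgeR). Abcc2, the canalicular conjugate pump, had 0.41 ± 0.11 (adjusted p = 0.330 by edgeR), from 937 to 1198 CPM in sham and 1139 to 1762 CPM in exposed females. These were the 2 of the list with an unadjusted p under 0.05 in females, beside 9.96% of all genes. The 2 pointed in opposite directions. In males no gene of the list had an unadjusted p under 0.05, beside 5.75% of all genes.

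Between the sexes, of 25 of these targets tested in sham animals, 16 were higher and 5 lower in females, beside 10.7% and 9.62% of all genes, with a median log2 fold change of 0.66. In exposed animals 15 were higher and 5 lower (median 0.61), beside 10.1% and 9.73%. Akr1b7 passed the count filter through the females alone and Gsta2, a glutathione transferase named here after its values were seen, through the males. Of the other 23, which passed it within each sex, 15 were higher and 4 lower in sham animals, beside 10.5% and 9.20% of such genes. In exposed animals 14 of the 23 were higher and 4 lower, beside 9.99% and 9.37%. Akr1b7, an aldo-keto reductase, averaged 760 ± 150 CPM in sham females and 0.389 ± 0.895 CPM in sham males. Cyp2a1, a testosterone hydroxylase, had a log2 fold change of 1.99 ± 0.13 and Cyp2c7, a retinoid-metabolizing P450, one of 2.46 ± 0.16. Gstm2, a glutathione transferase, had −1.16 ± 0.09. Genes of this list with paralogs, the glutathione transferases among them, may share reads.

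The rest of both subfamilies gives the setting. Cyp3a2, a male-specific steroid hydroxylase, averaged 1724 ± 179 CPM in sham males and 3.44 ± 1.15 CPM in sham females (SD, n = 6), a log2 fold change of −9.002 ± 0.20 (adjusted p = 1.18e-23 by edgeR). It is the chromosomal neighbour of Cyp3a23-3a1, which did not pass for sex. The exposure contrast of Cyp3a2 was 0.64 ± 0.25 in females (adjusted p = 0.440 by edgeR) and −0.03 ± 0.09 in males. Cyp2b3, a Cyp2b gene that lies next to the inducible pair and is known not to answer to phenobarbital, averaged 903 ± 158 CPM in sham females and 1385 ± 191 CPM in sham males (−0.65 ± 0.12, adjusted p = 1.04e-04 by edgeR). Its exposure contrasts were −0.09 ± 0.13 and 0.10 ± 0.09. Cyp2b12 and Cyp2b21 had at most 6 counts in a library, and Cyp2b15 had 0 in every library, which allows up to 3 counts, or 0.429 CPM in the smallest library.

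For each member, the 3 genes whose centred log2 CPM followed it most closely over 24 animals were found among 10478 genes. For Cyp2b1 they were Hdac8 (r = 0.655), Nr1i3 (0.655) and Cyp2j10 (0.652). For Cyp2b2 they were Dhrs7l1 (0.729), Mbl1 (0.677) and Lmnb1 (0.673), with r of only 0.169, 0.167 and −0.0876 in the 12 males. Cyp3a23-3a1 was followed by Skic8 (0.829), Dipk1a (0.806) and Psma1 (0.789), and Cyp3a18 by Dipk1a (0.872), Abhd14b (0.764) and Baat (0.751), so Dipk1a stood in both. Cyp3a9 was followed by Fam174a (0.879), Wfdc1 (0.779) and Ankrd13a (0.741), with r of 0.838, 0.798 and 0.694 in males alone. For Cyp3a62 they were Agmo (0.866), Hpx (0.780) and Cpb2 (0.779). Without animals 13 to 16 r was 0.422 to 0.459 for the 3 genes of Cyp2b1, 0.528 to 0.557 for those of Cyp2b2 and 0.477 to 0.710 for those of Cyp3a62, and 0.747 or more for the other 9. These are the highest of many correlations among animals that share library and depth effects.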

How the data were processed

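The data were bulk liver RNA-seq from 24 rats. The values were whole-number gene counts that the authors deposited without normalization, in 1 table per sex. The tools FastQC and HISAT2 and the rat build rn6 are named, without versions or roles, per the submitters' processing notes. Counting tool, annotation and strand setting are not given in the sources used here, so antisense or overlapping genes cannot be told apart. Symbols came from the RefSeq gene table of GRCr8, in which 15230 of 15319 identifiers matched. Replicates were separate animals, per the labels' titles.

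Each sex was fitted with edgeR 4.0.16 (filterByExpr with a minimum count of 10, TMM, robust quasi-likelihood test, Benjamini-Hochberg over all genes tested). The sex contrasts and the difference in response came from 1 fit of 24 libraries. SE is the log2 fold change divided by the square root of F. Group values are CPM of total counts, and correlations used log2 CPM with a prior count of 2 and 100000 permutations. The tools were R 4.3.3, limma 3.58.1, DESeq2 1.42.0, SciPy 1.17.1 and Biopython 1.88, and the scripts were tested on simulated counts.

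Alternatives were RLE factors, no count filter, a floor of 1 CPM reached by 6 libraries, DESeq2, limma-voom, no robust step, a threshold of 0.10, 1 fit of all libraries, another prior count, each library left out, and, chosen after seeing the data, animals 13 to 16 or animal 14 left out, and list counts over genes that pass the filter within each sex. Named are all members, Nr1i3, Nr1i2 and Por, at most 4 genes per list and contrast by smallest p, and 3 genes per member by likeness. Members and lists were chosen with earlier results of these data known. Of the lists, Ncoa3, Aldh1a7, Cyp3a73, Cyp3a85-ps, Stab1, Clec4g and Krt7 were not analysed here.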

Additional observations from a re-analysis of the deposited data

Results flagged for a closer look

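Among the exposed animals 3 livers gave an extreme value by Dixon's ratio, the gap to the nearest liver over the range of the group in log2 CPM (tested at its 95% critical value). Among PCB 52 males, animal 21 was lowest for Cyp2b2, 60.0 CPM against 92.5 to 120 CPM in the other 5, with a ratio of 0.626 that only just passed. For the summed Cyp2b pair its ratio was 0.512 and did not pass. Animal 23 was lowest for Cyp3a9, 8.89 CPM against 19.4 to 29.1 CPM (ratio 0.655). Among PCB 52 females, animal 24 was lowest for Cyp3a18, 14.1 CPM against 27.3 to 34.6 CPM (ratio 0.735). These were 3 of 28 groups tested, and chance alone marks about 1 in 20. Animal 14, the highest exposed female for Cyp2b1, Cyp2b2 and Cyp3a62, had ratios of 0.413, 0.429 and 0.603 and was not among them.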

How the results depend on the processing

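Outside the runs that leave out 1 library, 314 values were marked as unchanged and 18 were not. A fold change was unchanged if it kept its direction and its side of the threshold. A count of genes, pairs or outliers was unchanged if it stayed near the main count, so it could still move. The genes called between sham females and males, for example, went from 2139 to 2670 at a threshold of 0.10. DESeq2 called 28 genes for exposure in females and 1 in males, and limma-voom and the fit of all 24 libraries 1 each in females, in place of 0. Limma-voom turned the log2 fold change of Cyp2b2 (−0.19), the summed pair (−0.18) and Cyp3a62 (−0.041) in females, Cyp2b2 (0.047) and the pair (0.042) in males, and the sex difference in response of Cyp2b2 (−0.25) and the pair (−0.24). Without animals 13 to 16 Cyp2b2 (−0.59), the pair (−0.55) and Cyp3a62 (−0.50) turned in females, as did the difference in response of Cyp2b2 (−0.27), the pair (−0.26) and Cyp3a9 (−0.026). In males alone 0 pairs of members passed as correlated, in place of 2, with 12 animals in place of 24. The cause of the other shifts was not tested.

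With 1 library left out, 727 values were unchanged by the same rules, 17 changed sign, 10 lost a call and 2 counts of genes moved. For exposure in females Cyp2b2 ran from −0.86 to 0.78, the pair from −0.82 to 0.78, Cyp3a62 from −0.33 to 0.38, and the genes called from 0 to 8 (8 without animal 20, 1 without animal 10). Cyp3a23-3a1 ran from −0.062 to 0.068 in males and from −0.19 to 0.060 between sham females and males. The difference in response ran from −0.48 to 1.16 for Cyp2b2, from −0.44 to 1.16 for the pair and from −0.076 to 0.19 for Cyp3a9. Between exposed females and males Cyp2b2 ran from −3.53 to −1.97 and the pair from −3.57 to −2.03. No paired analysis was possible because the labels give no number that groups share. The few counts of Cyp2b1 in females limit its precision, and counting error is only part of the spread between animals.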

Other observations

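Cyp2b1 made up a small part of the counts of the Cyp2b pair in every group, from 2.15% to 16.5% in sham females (median 6.52%), 5.47% to 16.7% in PCB 52 females (7.26%), 6.28% to 13.3% in sham males (11.6%) and 5.05% to 15.5% in PCB 52 males (10.1%). These are shares of deposited counts, not corrected for length or for reads that fit both genes. The 4 groups overlapped.

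Marker lists of other cell types had their own ranges. Kupffer cell markers summed to 430 to 644 CPM in sham females, 388 to 542 in PCB 52 females, 328 to 436 in sham males and 371 to 423 CPM in PCB 52 males. Stellate cell markers stood at 207 to 423 CPM, endothelial markers at 151 to 310 CPM and cholangiocyte markers at 9.78 to 22.1 CPM over all libraries. Pericentral hepatocyte markers, the zone where Cyp2b and Cyp3a induction is known to be strongest, summed to 5714 to 7932 CPM in sham females, 6042 to 6829 in PCB 52 females, 4704 to 5915 in sham males and 3721 to 6479 CPM in PCB 52 males. Periportal markers stood at 3314 to 5492 CPM in females and 4241 to 5372 CPM in males. By edgeR 0 genes of these lists passed for exposure in either sex, and their part in the levels of the P450 genes was not tested.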
